A study of Mus musculus with 4 samples.

Results

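The genes described here drive the last steps of cell division: 43 genes for mitotic kinases, the anaphase-promoting complex or cyclosome (APC/C), the spindle and cytokinesis. They were found by exact symbol among 23473 gene rows of a table of RNA-seq read counts, and all 43 had enough counts to be tested. The libraries came from MIN6, a mouse insulinoma line used as a model of the pancreatic beta cell, kept in 25 mM glucose. The 2 control libraries carry the label wild type, and the 2 TLX libraries come from a stable derivative that overexpresses TLX, the nuclear receptor encoded by Nr2e1. The sources used here do not give the vector, its promoter, or whether the stable cells are a clone or a pool. Effects of TLX and of deriving the stable cells cannot be told apart in this design. No source states that libraries of a group came from separate cultures, so p-values measure only the spread between these libraries, which may be technical.

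A cell enters mitosis when cyclin-dependent kinase activity, aided by Aurora and Polo kinases, rises above the phosphatases that oppose it. The APC/C, a ubiquitin ligase of many subunits, then marks securin and cyclin B for destruction with its activator CDC20, so that separase can free the sister chromatids, and a contractile ring divides the cell. Many of these genes are transcribed mainly in the G2 and M phases, under the MuvB complex with B-MYB and then FOXM1, while the subunits of the APC/C itself are widely expressed through the cycle. Adult beta cells divide rarely, whereas MIN6 is a proliferating tumour line.

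The libraries held 10865462 to 13066536 counts, of which gene rows took 8136185 to 9788646. Nr2e1 had 8 and 10 counts in control against 338 and 281 with TLX, in the direction of the labels. The labelled cell type was not matched by its defining transcripts: 9 of 13 beta cell markers were at 0 in every library, among them Neurod1, Slc2a2 and Iapp, and Ins1 was the only one averaging at least 5 CPM (counts scaled to a common library size after TMM adjustment). Of 13 fibroblast and mesenchyme markers 8 averaged at least 5 CPM, with a summed level of 7992 and 7584 CPM in control and 8604 and 8267 CPM in TLX, while Lum was at 0 and Dcn, Thy1, Acta2 and Col3a1 were each under 1 CPM in every library. Within that list Col1a2 and Sparc were called higher (adjusted p under 0.05) and Fn1 and Pdgfrb lower. Of 6 leukocyte markers only Cd68 was above 1 CPM in any library, at 59.2 and 68.2 CPM in control and 43.3 and 45.4 CPM in TLX, where it was called lower, and 2 were at 0 throughout. The 4 endothelial markers summed to 0.302 CPM at most, and 3 of 4 acinar markers were at 0, with a sum of 0.906 to 2.31 CPM. The part of these differences in the results on mitotic genes was not tested.

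Of the 43 mitotic genes 22 were higher in the TLX libraries and 0 lower, by modest folds. Of all gene row counts the 43 genes took 0.295% and 0.305% in control, against 0.366% and 0.356% with TLX. They summed to 2982 and 3007 CPM in control and 3589 and 3659 CPM in TLX, a ratio of 1.21. By edgeR's quasi-likelihood test, adjusted over 11024 genes, 22 of 43 (51.2%) were called higher at an adjusted p under 0.05 and 0 lower, beside 7.79% of all genes tested called higher and 9.04% called lower. None of the 43 had a negative change at an unadjusted p under 0.05, and DESeq2 called none lower. The median log2 fold change was 0.30 over the 43 genes and 0.00057 over all genes tested. A positive change was seen in 39 of 43 (90.7%), beside 50.1% of all genes. Both TLX libraries lay above both control libraries in 35 of 43 (81.4%), beside 28.5% of all genes. In bulk RNA, a larger share of cells in G2 or mitosis and more of these transcripts per such cell cannot be told apart.

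The 22 called genes rose between 1.21-fold and 1.68-fold, with a median of 1.31-fold, and 2 of them, Plk1 and Hmmr, reached 1.5-fold. DESeq2's Wald test called 11 of the 43 higher, all among the 22. Without TLX replicate 1 the number was 13, and without TLX replicate 2 it was 9. In these 3 settings 3.22%, 4.06% and 3.46% of all genes were called higher. Plk1, Foxm1, Top2a, Anln, Espl1 and Ckap2l passed in each of 12 alternatives, a number that does not include the fit with a replicate block. In the plot of shares under each way of testing, the members stand above the background in every row.

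**Figure D1:**
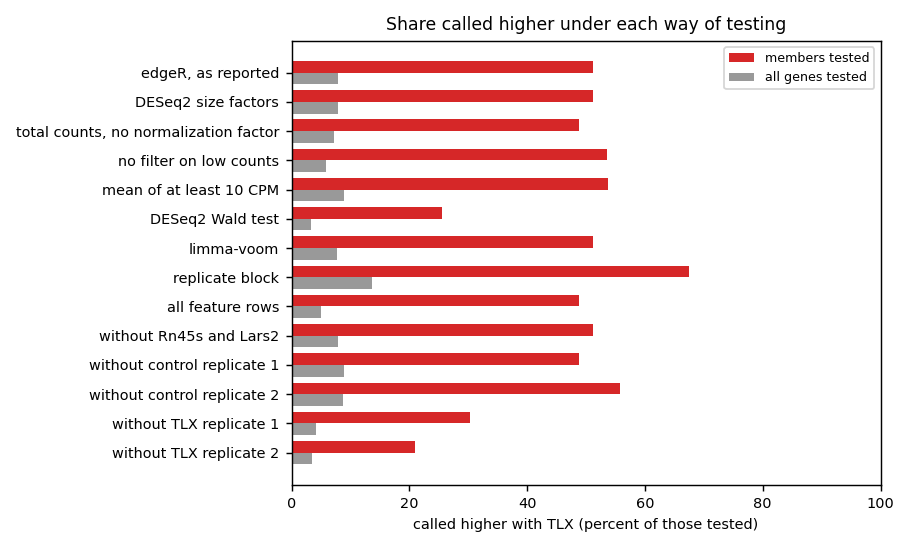
Bars give the percentage called higher with TLX (adjusted p under 0.05) among the members tested (red) and among all genes tested (grey), for the fit as reported and for 13 alternatives. The members reach 51.2% as reported and 20.9% without TLX replicate 2, where all genes reach 3.46%.

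**Figure D2:**
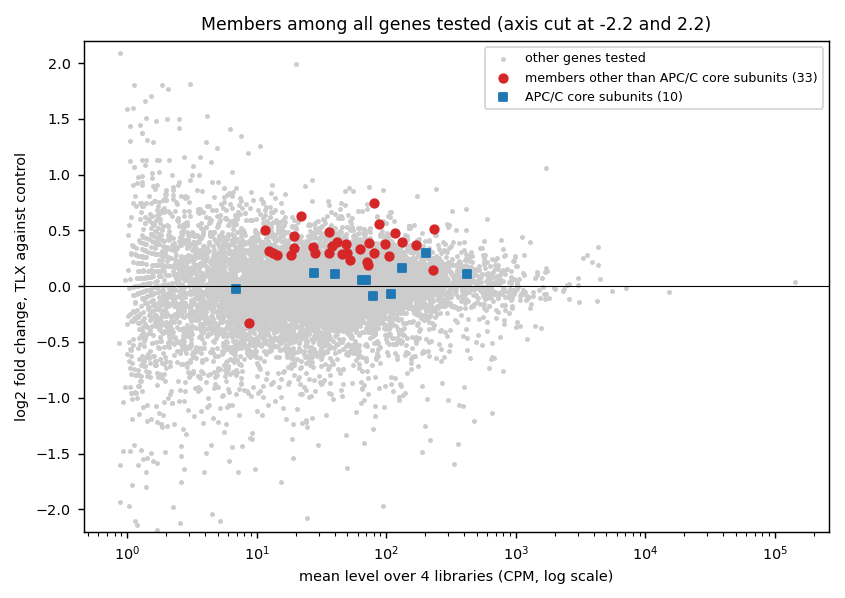
Each point is a gene, with the mean level over the 4 libraries on a log axis in CPM and the log2 fold change of TLX against control on the other axis, which hides 8 genes beyond it. The 33 members other than APC/C core subunits (red) have a median of 0.34 and the 10 core subunits (blue) a median of 0.08.

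The transcription of many of these genes is known to act through a short promoter element, the CHR, which the MuvB subunit LIN54 contacts, often next to CCAAT boxes bound by NF-Y. Promoter sequence from 250 bases before to 50 bases after the annotated transcript start was read from RefSeq on GRCm38.p6 for 36 of the 43 genes, of which 19 were called. The letters searched were TTTGAA for the CHR and CCAAT for the CCAAT box, on both strands (as TTCAAA and ATTGG on the other one). The windows of the 3 called genes of smallest p that the reference holds, Plk1, Top2a and Anln, are shown with those of 2 APC/C core subunits, Anapc1 and Cdc27. They are written 5′ to 3′ on the gene's strand, with CHR and CCAAT matches in capitals.
Plk1 (chr7:122159185-122159484, + strand): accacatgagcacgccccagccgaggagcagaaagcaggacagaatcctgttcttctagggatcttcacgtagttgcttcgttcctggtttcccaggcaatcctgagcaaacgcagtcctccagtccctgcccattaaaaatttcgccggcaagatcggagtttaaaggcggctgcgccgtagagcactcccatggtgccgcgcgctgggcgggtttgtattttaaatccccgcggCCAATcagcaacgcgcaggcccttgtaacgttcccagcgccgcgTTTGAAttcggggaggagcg
Top2a (chr11:99024140-99024439, - strand): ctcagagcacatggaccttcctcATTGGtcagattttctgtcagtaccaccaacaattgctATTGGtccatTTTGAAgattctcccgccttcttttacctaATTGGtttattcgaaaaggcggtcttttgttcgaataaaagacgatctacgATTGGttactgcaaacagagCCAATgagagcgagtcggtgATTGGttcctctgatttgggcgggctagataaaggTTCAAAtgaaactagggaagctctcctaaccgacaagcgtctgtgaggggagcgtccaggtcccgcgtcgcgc
Anln (chr9:22389157-22389456, - strand): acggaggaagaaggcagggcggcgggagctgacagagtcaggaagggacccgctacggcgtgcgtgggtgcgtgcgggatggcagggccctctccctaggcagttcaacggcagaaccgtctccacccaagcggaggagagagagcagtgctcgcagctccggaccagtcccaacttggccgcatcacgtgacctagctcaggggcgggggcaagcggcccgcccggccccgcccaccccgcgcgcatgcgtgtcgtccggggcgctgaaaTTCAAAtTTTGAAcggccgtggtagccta
Anapc1 (chr2:128687346-128687645, - strand): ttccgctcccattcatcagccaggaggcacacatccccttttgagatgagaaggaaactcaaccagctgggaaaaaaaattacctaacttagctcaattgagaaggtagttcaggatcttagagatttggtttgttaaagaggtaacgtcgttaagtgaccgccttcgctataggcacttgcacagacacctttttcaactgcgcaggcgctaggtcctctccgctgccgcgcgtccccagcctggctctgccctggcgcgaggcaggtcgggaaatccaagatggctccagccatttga
Cdc27 (chr11:104550571-104550870, - strand): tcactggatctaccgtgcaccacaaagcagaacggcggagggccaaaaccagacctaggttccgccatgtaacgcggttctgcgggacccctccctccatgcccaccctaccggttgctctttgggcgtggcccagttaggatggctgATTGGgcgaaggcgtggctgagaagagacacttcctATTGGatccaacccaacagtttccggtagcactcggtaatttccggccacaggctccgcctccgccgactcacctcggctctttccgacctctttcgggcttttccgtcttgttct

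Plk1 had a single CCAAT box at -14 and a single CHR match at +31 from the start, counted at the first base of the match. Top2a had 6 CCAAT matches and a CHR match at -23 besides one at -179. Anln had 2 neighbouring CHR matches at +22 and +29 and no CCAAT match. Anapc1 had neither motif in this window, and Cdc27 had 2 CCAAT matches and no CHR.

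A CHR match was present in 18 of the 36 genes, beside 13.8% of tested genes with a window and 20.2% of all genes in the promoter table. Among called members 12 of 19 (63.2%) held one, and among members not called 6 of 17 (35.3%). Over all genes the shares were 17.0% of those called higher and 13.5% of those not called. Of the 17 members not called, 8 are APC/C core subunits, of which 1 held a match, and 5 of the other 9 did; the difference between called and not called members was not tested. All 12 called genes had their nearest match within 33 bases of the start. Within 50 bases, a distance chosen after the matches were seen, lay a match in 15 of 36 members (41.7%) and in 306 of 8248 tested genes (3.71%). Of the 6 members not called that held a match, 3 had one within that distance, Fbxo5 at +4, Prc1 at -5 and Lin54 at +41. CCAAT letters were in 22 of 36 members (61.1%), beside 43.7% of tested genes. By role, among genes with a window, CHR matches were in 5 of 6 cytokinesis genes, 3 of 4 spindle genes, 2 of 2 chromosome protein genes and 4 of 7 APC/C activators and partners. They were in 2 of 6 kinase genes, 1 of 2 transcription factor genes and 1 of 9 APC/C core subunits, Anapc7, at -96. These are matches of letters and were not tested as sites. The other called genes with a CHR match are shown in windows of 30 bases around the match nearest to the start, on the gene's strand, with the match alone in capitals.
Aurka (chr2:172370521-172370550, - strand): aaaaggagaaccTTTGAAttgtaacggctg
Cdc20 (chr4:118437344-118437373, - strand): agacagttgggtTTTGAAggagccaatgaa
Ube2c (chr2:164769888-164769917, + strand): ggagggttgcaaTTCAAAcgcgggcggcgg
Espl1 (chr15:102296254-102296283, + strand): tcactagggataTTTGAAaggaggtgctgg
Hmmr (chr11:40733412-40733441, - strand): agttgaggtaaaTTTGAAttcaggcgagct
Ckap2l (chr2:129297225-129297254, - strand): ttattggcgaatTTCAAAgtcgcggaagcc
Ect2 (chr3:27153822-27153851, - strand): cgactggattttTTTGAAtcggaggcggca
Racgap1 (chr15:99651634-99651663, - strand): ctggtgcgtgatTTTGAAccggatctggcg
Cep55 (chr19:38054996-38055025, + strand): acagccgcgggaTTCAAActcccggaagcg

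The match nearest to the start reads TTTGAA on the gene's strand in 7 of the 12 called genes and on the other strand in 5, where it appears as TTCAAA. Counting every match in the window, 10 of the 12 hold TTTGAA on the gene's strand. In Cdc20 the match at -18 is followed by a CCAAT box at -8, and in Ube2c the match at -29 follows a run of 6 CCAAT matches. Ckap2l has CCAAT matches on both sides of its match at -30. Called members without the CHR letters in their window included Nek2, Mastl and Mybl2.

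**Figure D3:**
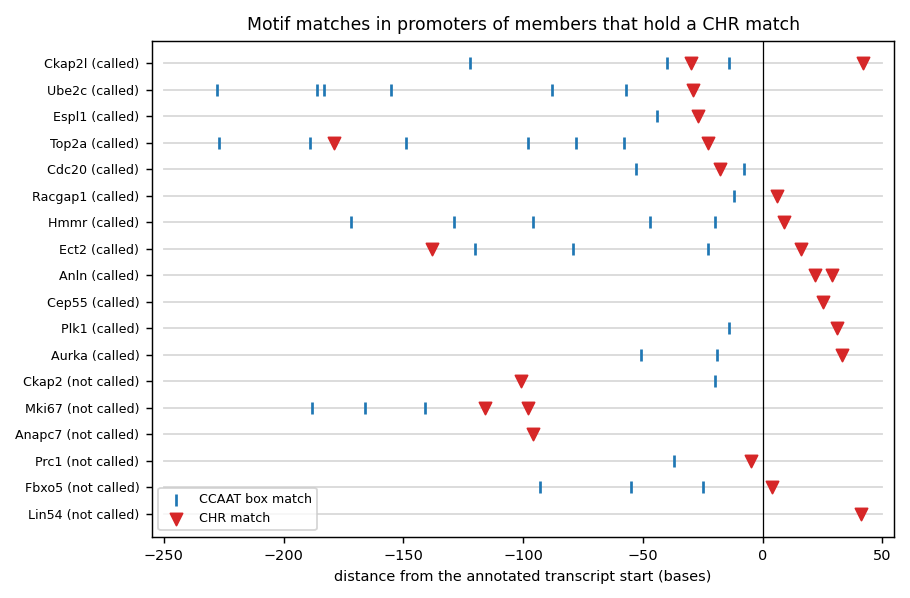
Rows are the 18 members with a CHR match, and the axis gives the distance in bases from the annotated transcript start, with CHR matches as red triangles and CCAAT matches as blue ticks. In all 12 called genes a triangle lies within 33 bases of the start. Of the genes not called, Fbxo5, Prc1 and Lin54 have their nearest triangle at +4, -5 and +41. In Ckap2, Mki67 and Anapc7, also not called, it lies farther upstream, at -101, -98 and -96.

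Among the kinases, Plk1 led. Plk1, the Polo kinase of mitotic entry and spindle assembly, was at 61.5 and 59.0 CPM in control and 104 and 97.3 CPM in TLX. The TLX libraries were well clear of the controls, a log2 fold change of 0.74 (SE 0.09; 1.68-fold, 95% interval 1.48 to 1.89; edgeR adjusted p = 1.47e-06). Nek2, a kinase that parts the centrosomes, was at 86.5 and 83.6 CPM in control and 111 and 109 CPM in TLX (log2 fold change 0.37, SE 0.08, edgeR adjusted p = 0.00228). Aurka, the spindle-pole Aurora kinase, was at 54.1 and 57.3 CPM against 69.7 and 71.0 CPM (0.34, SE 0.09, edgeR adjusted p = 0.00922). In both genes the 2 libraries of a group were close together and the groups did not overlap. Mastl, or Greatwall, which holds back the phosphatase PP2A, rose 1.42-fold from a low level (9.70 and 9.57 CPM against 12.8 and 14.5 CPM), and Melk rose 1.27-fold (edgeR adjusted p of 0.0263 and 0.0367).

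The other 3 genes of this group did not pass. Plk4, the kinase of centriole duplication, was at 15.7 and 18.2 CPM in control and 20.5 and 22.7 CPM in TLX (0.34, SE 0.13, edgeR adjusted p = 0.0757). Pbk had a log2 fold change of 0.30 (SE 0.11, edgeR adjusted p = 0.0661). Plk4 and Pbk each passed when control replicate 2 was left out (0.0289 and 0.0429; range 0.0289 to 0.371 for Plk4 and 0.0429 to 0.343 for Pbk across alternatives). Bora, the cofactor with which Aurora A activates PLK1, was the one member with both TLX libraries below both controls, at 8.98 and 10.3 CPM against 7.05 and 8.33 CPM. It had 61 to 102 counts a library, and its interval ran from -0.70 to 0.03 on the log2 scale (edgeR adjusted p = 0.21). Nek2 was at 0.0546 without TLX replicate 1, and Aurka did not pass in DESeq2 or without either TLX library (up to 0.101). Melk was lost in DESeq2 and without control replicate 2 or either TLX library, and Mastl in DESeq2 and without control replicate 2 or TLX replicate 2 (up to 0.295 and 0.247).

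Of the 4 transcription factor genes 2 were called higher, Foxm1 and Mybl2, beside 7.79% of all genes tested. Foxm1, which activates genes of G2 and M, was at 190 and 197 CPM in control and 273 and 279 CPM in TLX. Each pair was tight and the gap between groups wide, a log2 fold change of 0.51 (SE 0.07; 1.43-fold; edgeR adjusted p = 3.48e-05). Mybl2, or B-MYB, which joins MuvB in S phase, was at 44.4 and 41.1 CPM against 57.0 and 53.9 CPM (0.38, SE 0.09, edgeR adjusted p = 0.00639; not called in DESeq2 or without TLX replicate 1, at most 0.101). The MuvB subunits Lin9 and Lin54 had changes of 0.32 and 0.28 with SEs of 0.15 and 0.13 and did not pass (edgeR adjusted p of 0.156 and 0.165). Both lay at low levels, with 86 to 174 counts a library, and in both the TLX libraries were above the controls.

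Among the core subunits of the APC/C the changes were small. Of 10 subunits 1 was called higher, beside 7.79% of all genes tested, and 7 had a positive and 3 a negative change. Of all genes tested 50.1% had a positive change. The median was 0.08, beside 0.34 over the other 33 genes, of which 21 were called. The difference between these groups was not tested. Summed over the 10 subunits the level was 1129 and 1087 CPM in control and 1207 and 1185 CPM in TLX, a ratio of 1.08. The exception was Anapc1, the largest scaffold subunit, at 174 and 191 CPM against 221 and 228 CPM (0.30, SE 0.08; 1.23-fold; edgeR adjusted p = 0.00883). Anapc1 did not pass without TLX replicate 1 or without TLX replicate 2 (at most 0.16).

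The other 9 core subunits had 95% intervals that include 0. Anapc5 was at 422 and 385 CPM in control and 441 and 426 CPM in TLX (interval -0.05 to 0.27), and Anapc2, the cullin subunit that holds the E2 enzyme, at 134 and 117 CPM against 141 and 139 CPM (-0.01 to 0.33; called without control replicate 1, edgeR adjusted p = 0.0187, 0.0187 to 0.678 over the alternatives). Their TLX libraries lay above the controls by small margins. Anapc11, the RING subunit, was at 121 and 103 CPM against 111 and 101 CPM, Anapc7 at 84.0 and 79.9 against 83.0 and 71.0 CPM, and Anapc10 at 6.11 and 7.85 against 6.59 and 7.32 CPM, all with overlapping groups. Cdc16, Cdc23 and Cdc27, which encode TPR subunits, had changes of 0.11, 0.06 and 0.11, and Anapc4 of 0.06 (SEs of 0.09 to 0.11). The upper bounds were 1.31-fold for Anapc10, 1.27-fold for Cdc16 and 1.26-fold for both Anapc2 and Cdc27, so in these 4 genes a rise of the size of the list's median, 1.23-fold, lies within the interval. For Anapc7 and Anapc11 the upper bounds were 1.07-fold and 1.08-fold.

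Of 7 genes that switch the APC/C on, feed it ubiquitin, hold it back or depend on it, 4 were called higher. Of all genes tested 7.79% were called higher. Cdc20, the activator of early mitosis, was at 118 and 109 CPM in control and 153 and 145 CPM in TLX. The groups were apart, with a log2 fold change of 0.40 (SE 0.08; 1.32-fold; edgeR adjusted p = 0.00119, and 0.0521 without TLX replicate 1; range 3.51e-06 to 0.0521 across alternatives). Espl1, which encodes separase, was at 64.4 and 61.8 CPM against 81.8 and 83.8 CPM (0.39, SE 0.08, edgeR adjusted p = 0.00231). Its inhibitor securin, encoded by Pttg1, was at 41.0 and 40.4 CPM against 49.6 and 49.7 CPM, so separase and securin transcripts were both higher (0.29, SE 0.09, edgeR adjusted p = 0.0335). Pttg1 lay near the threshold and was lost in 6 of 12 alternatives, with total counts in place of TMM among them (0.0327 to 0.23).

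Ube2c, the E2 enzyme that starts ubiquitin chains on APC/C targets, was at 68.0 and 76.1 CPM in control and 89.6 and 88.3 CPM in TLX (0.30, SE 0.09, edgeR adjusted p = 0.0178). Ube2c was lost in DESeq2 and without control replicate 1 or either TLX library (at most 0.154). Ube2s, the E2 that lengthens the chains, was at 226 and 212 against 243 and 240 CPM and did not pass (0.14, interval -0.02 to 0.30, edgeR adjusted p = 0.217). Fzr1, or CDH1, the activator of late mitosis and G1, had a change of 0.24 (edgeR adjusted p = 0.0794, and 0.0262 without control replicate 1; range 0.0262 to 0.411 across alternatives). Fbxo5, or EMI1, the interphase inhibitor of the APC/C, had 0.29 with an SE of 0.15 (edgeR adjusted p = 0.202). All 7 genes had both TLX libraries above both controls, beside 28.5% of all genes tested. Per length, Ube2s was the most abundant of the 43 transcripts, averaging 233 RPKM (CPM divided by feature length in kilobases), followed by Anapc5 at 152, Ube2c at 86.5 and Cdc20 at 73.5 RPKM.

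Spindle genes were next. Hmmr, whose product links microtubules at the spindle poles, was at 15.0 and 19.2 CPM in control and 23.4 and 30.0 CPM in TLX. The libraries spread widely within each group without overlapping, with a log2 fold change of 0.63 (SE 0.14; 1.54-fold; edgeR adjusted p = 0.00315, and 0.0579 without TLX replicate 2; range 3.54e-06 to 0.0579 across alternatives). Ckap2l, also called radmis, was at 26.8 and 33.2 CPM against 42.8 and 41.6 CPM (0.48, SE 0.11, edgeR adjusted p = 0.00306). Tpx2, which activates Aurora A on the spindle, was at 94.8 and 94.0 CPM against 107 and 121 CPM (0.27, SE 0.08, edgeR adjusted p = 0.0268), and Dlgap5, or HURP, rose 1.23-fold (edgeR adjusted p = 0.0386). Tpx2 and Dlgap5 were each lost in DESeq2 and without either TLX library, Dlgap5 also without control replicate 1 (at most 0.435 and 0.292). Ckap2 and Nusap1 had changes of 0.30 and 0.28 and did not pass (edgeR adjusted p of 0.058 and 0.191). Ckap2 passed with no filter on low counts and without control replicate 2 or TLX replicate 1 (range 0.0106 to 0.503 across alternatives). All 6 spindle genes had both TLX libraries above both controls, beside 28.5% of all genes tested.

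Of the 6 cytokinesis genes 5 were called higher, beside 7.79% of all genes tested. Anln, or anillin, a scaffold of the contractile ring, was at 90.9 and 105 CPM in control and 134 and 139 CPM in TLX (0.48, SE 0.08; 1.39-fold; edgeR adjusted p = 0.000309). Racgap1, a subunit of centralspindlin, was at 145 and 152 CPM against 188 and 197 CPM (0.37, SE 0.08, edgeR adjusted p = 0.00144, and 0.0667 without TLX replicate 2; range 2.38e-05 to 0.0667 across alternatives). Ect2, the exchange factor that centralspindlin recruits to activate RhoA, was at 34.1 and 37.8 CPM against 44.2 and 50.8 CPM (0.40, SE 0.10, edgeR adjusted p = 0.00834). Anillin, centralspindlin and ECT2 act in the same pathway at the cell equator. In these 3 genes both TLX libraries lay above both controls, beside 28.5% of all genes tested.

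Cep55, which brings the abscission machinery to the midbody, was at 15.6 and 17.1 CPM in control and 21.2 and 23.7 CPM in TLX (1.37-fold, edgeR adjusted p = 0.0166). The citron kinase gene Cit was at 30.3 and 36.3 CPM against 41.9 and 44.2 CPM (1.29-fold, edgeR adjusted p = 0.0185). Ect2, Cep55 and Cit were each lost in DESeq2 and without TLX replicate 2, Cit also without control replicate 1 (at most 0.185, 0.17 and 0.146). Prc1, which bundles the central spindle, did not pass, at 61.1 and 71.1 CPM against 73.8 and 79.9 CPM (0.21, SE 0.09, edgeR adjusted p = 0.12). Without control replicate 2 Prc1 was called (0.00968; range 0.00968 to 0.536 across alternatives).

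The 2 chromosome proteins differed in call. Top2a, the topoisomerase that untangles sister chromatids, was at 65.8 and 75.0 CPM in control and 98.1 and 110 CPM in TLX (0.56, SE 0.09; 1.47-fold; edgeR adjusted p = 0.000116). Mki67, which encodes the proliferation marker Ki-67, was at 62.3 and 73.0 CPM against 67.8 and 87.1 CPM, with overlapping groups. Its log2 fold change was 0.19 (interval -0.03 to 0.41; edgeR adjusted p = 0.24), and a rise of up to 1.33-fold lies within its interval. Leaving out control replicate 2 gave 0.31 with a call (edgeR adjusted p = 0.016), and leaving out TLX replicate 2 gave -0.00019; over the alternatives the adjusted p ran from 0.016 to 1.0. The difference between Top2a and Mki67 was not tested.

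**Figure D4:**
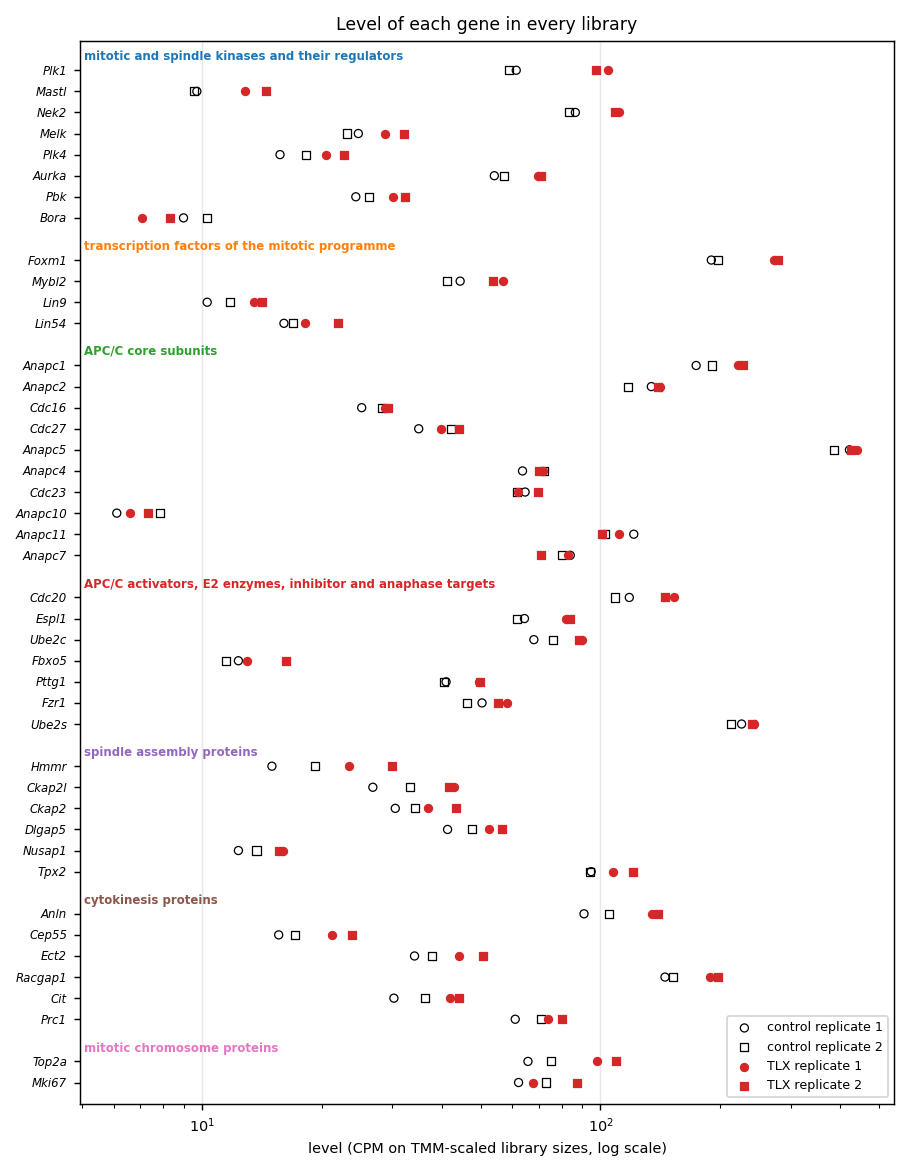
Every gene is a row, grouped by role, with its level in each of the 4 libraries in CPM on a log axis (open symbols control, red symbols TLX; circles replicate 1, squares replicate 2). Red symbols lie to the right of both open symbols in 35 of 43 rows, and in 4 of the 10 rows of the APC/C core. Of all genes tested 28.5% show this order.

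**Figure D5:**
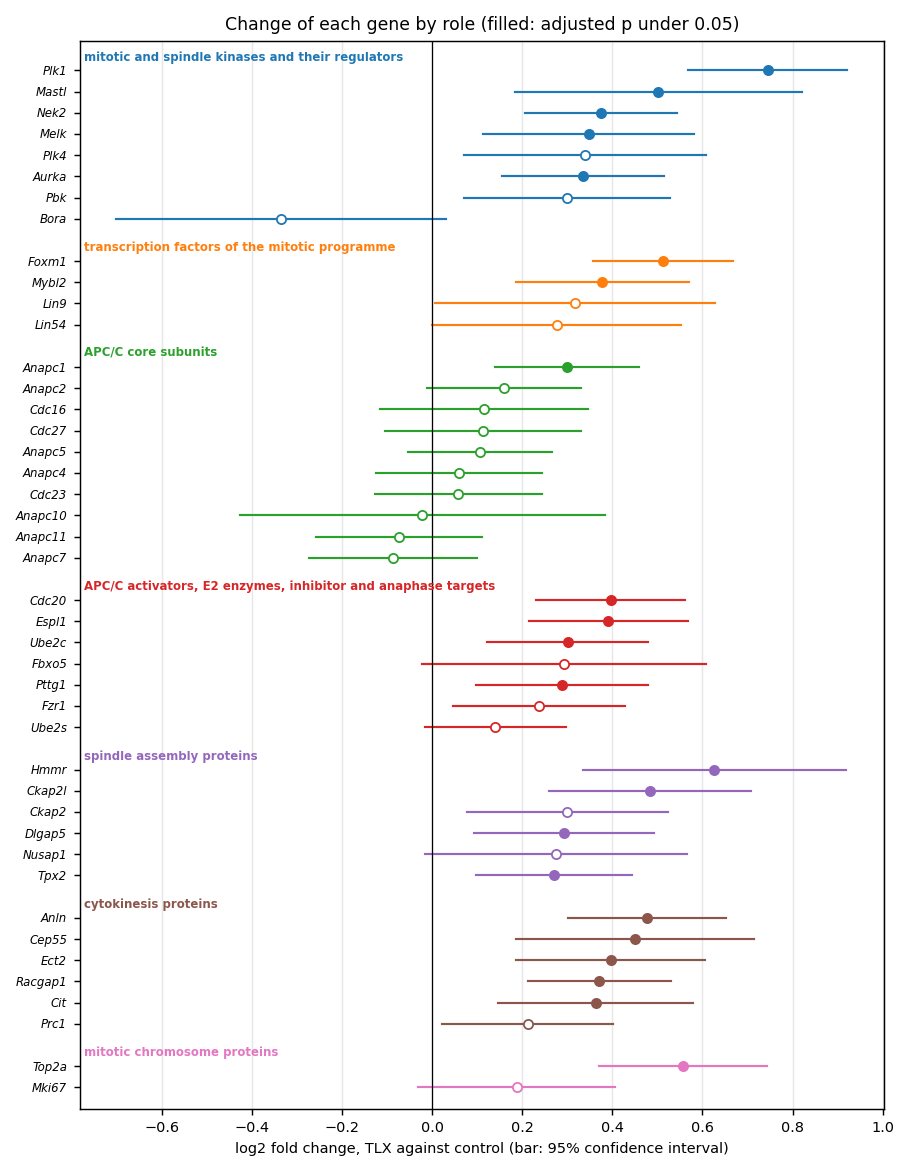
Points give the log2 fold change of TLX against control and bars its 95% confidence interval, with filled points for the 22 genes at an adjusted p under 0.05. Intervals of 9 of 10 APC/C core subunits include 0, and Bora has the lowest value, at -0.33.

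The order of the 2 libraries within a group was also compared. In 22 of 43 genes replicate 2 was above replicate 1 in control and in TLX alike, in 10 it was below in both, and in 11 the order differed. Over all 11024 genes tested these shares were 29.9%, 28.5% and 41.6%, and no test of the difference was made. A chi-square between 2 libraries was taken over gene rows reaching a minimum count, scaled by the summed counts of those rows and not TMM. Its median was 1.13 between the control libraries and 0.923 between the TLX libraries, against 2.11 to 2.30 between libraries of different groups. Hmmr, Mki67, Top2a and Ect2 were among the 22, and Plk1, Nek2 and Cdc20 among the 10. Summed over the 6 cytokinesis genes the levels were 377 and 419 CPM in control and 503 and 535 CPM in TLX, and over the 8 kinase genes 285 and 287 CPM against 385 and 387 CPM.

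Other genes of the same pathways, 96 in all and chosen by role, were also described. Of 89 tested, 19 were called higher and 4 lower, 70 had a positive change, and the median log2 fold change was 0.16. These are 21.3% higher and 78.7% positive, beside 7.79% and 50.1% of all genes tested, with 9.04% of all genes called lower. The groups by role that follow are small, and their counts are read against 16.8% of all genes called in either direction. DESeq2 called 6 of the 89 genes higher, beside 3.22% of all genes tested in the same setting. Among other mitotic kinases 6 of 19 were higher and 2 lower. The Polo kinases did not move alike: Plk2 was at 537 and 521 CPM in control and 241 and 261 CPM in TLX, and Plk3 at 165 and 173 against 82.9 and 83.5 CPM, log2 fold changes of -1.07 and -1.02 (edgeR adjusted p of 1.26e-09 and 3.91e-09), while Plk1 was higher. PLK2 and PLK3 are stress-responsive relatives that act mainly outside mitosis. Lats2, a Hippo pathway kinase also found at centrosomes, and Cdk1, the kinase that drives mitotic entry, rose by 0.45 and 0.35 on the log2 scale (edgeR adjusted p of 0.000295 and 0.00439).

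Of 11 mitotic phosphatase genes and inhibitors 2 were higher, neither of them in DESeq2, and 1 lower. With so few genes, the difference of these counts from the 16.8% of all genes called in either direction was not tested. The lower one was Ensa, whose product inhibits PP2A once Greatwall has phosphorylated it, at 236 and 221 CPM in control and 192 and 186 CPM in TLX (-0.27, edgeR adjusted p = 0.016), while Mastl was higher. Of 11 further APC/C and ubiquitin genes 2 were higher, the small subunit gene Anapc13 (0.39) and Cks2 (0.28), and 0 lower (edgeR adjusted p of 0.0365 and 0.0387). Neither Anapc13 nor Cks2 passed in DESeq2 (adjusted p of 0.255 and 0.234). None of 10 other genes of the DREAM and MuvB complexes was called in edgeR (3 at an unadjusted p under 0.05) or higher in DESeq2; their median was 0.04, with Rbl2 at 0.32, Tfdp2 at 0.30 and E2f5 at -0.60.

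Of 23 further spindle genes 5 were higher and 0 lower. Tacc3, a partner of Aurora A on the spindle, rose 1.34-fold, and the orientation factor gene Gpsm2 and the motor genes Kif11 and Kif2c had log2 fold changes of 0.48, 0.62 and 0.35 (edgeR adjusted p of 0.00104, 0.00245, 0.00281 and 0.011). Kif2c did not pass in DESeq2 (adjusted p = 0.109). Of 15 further cytokinesis genes 4 were higher, with the motor genes Kif20a and Kif23 at 0.40 and 0.41, and 1 was lower, the RhoA exchange factor gene Arhgef2 at -0.40 (edgeR adjusted p of 0.00115, 0.00826 and 0.000604). Kif23 encodes the other subunit of centralspindlin, beside Racgap1, and did not pass in DESeq2 (adjusted p = 0.0942).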

How the data were processed

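The values the authors deposited are raw counts of reads for each feature in each library, not normalized, and each feature's length in bases, per the file headers. TopHat2 2.0.13 and the mouse build mm9 were used, per the submitters' processing notes; the sources used here do not give the counting program, the annotation or the use of strand. Of 56826 rows, 33353 are cDNA clones, which took 23.3% to 25.1% of counts and entered neither library sizes nor tests, since some may count reads of genes again. No member shared its 4 counts exactly with a clone row. Melk and Lin9 each had 1 clone row with nearly the same 4 counts, and whether it counts the same reads was not tested.

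Columns were matched to samples by title. The test was edgeR 4.0.16's quasi-likelihood test (glmQLFit, glmQLFTest; R 4.3.3) on TMM-scaled gene rows kept by filterByExpr at a minimum count of 10. It had 2 residual degrees of freedom and a median of 20.6 prior degrees of freedom, which come from the spread over all genes. The SEs, intervals and p-values therefore rest largely on variance shared between genes. The p-values were adjusted by Benjamini-Hochberg across all 11024 genes, with calls at 0.05. The SE is the log2 fold change divided by the square root of F, and intervals are 95%. The common biological coefficient of variation was 5.24%. In these libraries 3 counts, the limit that a count of 0 allows by counting error alone, equal 0.302 to 0.379 CPM. The fit was tested on simulated data. Alternatives used DESeq2 1.42.0, limma 3.58.1 (voom), other scaling, filters and rows, and left out each library in turn. The members, their roles and the lists were chosen with earlier results of these data known. All members could be named, and up to 4 genes of smallest p in each pathway group. Promoters come from RefSeq on GRCm38.p6, which is not the build of the counts, so only symbols link them. For 38 of 42 promoter windows the last bases were found in a GENCODE transcript of that gene.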

Additional observations from a re-analysis of the deposited data

How the results depend on the processing

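The number of the 43 genes called higher was 22 in the reported fit, 11 in DESeq2's Wald test, and 9 to 24 when 1 library was left out. It was 21 to 23 under the other scaling, filter, row and voom settings, and 0 were called lower in any setting. Over all genes, DESeq2 called 355 higher and 484 lower, and leaving out 1 library gave 388 to 993 higher and 585 to 1060 lower. Of the 89 further pathway genes DESeq2 called 6 higher, and leaving out 1 library gave 8 to 21. With the replicate number as a block, 1495 genes (13.6%), 29 members and 29 pathway genes were called higher. The 22 called members were all among those 29. The other members called were Plk4, Pbk, Fzr1, Prc1, Ckap2, Anapc2 and Mki67 (edgeR adjusted p of 0.0073 to 0.0494). Ranges given for single genes across alternatives leave out the fit with this block. The labels do not say that a number marks a shared culture or day, and only 2 pairs exist: over 11024 genes the difference between replicates 1 and 2 in control correlated with that in TLX at 0.11, and over the 43 members at 0.46.

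For 36 members the sign of the change held in every alternative. For the other 7 it turned when 1 library was left out, and the cause was not tested. The log2 fold change then ran from -0.18 to 0.18 for Anapc10, from -0.19 to 0.047 for Anapc11, from -0.025 to 0.15 for Anapc4, from -0.21 to 0.021 for Anapc7, from -0.026 to 0.14 for Cdc23, from -0.012 to 0.26 for Cdc27 and from -0.00019 to 0.36 for Mki67. Anapc10, Bora, Lin9 and Mastl, with under 100 counts in at least 1 library, had SEs of 0.15 to 0.20, so changes of the size of the list's median are poorly resolved there.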
